A study of Mus musculus with 10 samples.

Results

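The Notch pathway was followed in mouse colon through 10 of the 56691 genes in the deposited table, namely the 4 receptors *Notch1*, *Notch2*, *Notch3* and *Notch4*, the 3 ligands *Dll1*, *Dll4* and *Jag1*, and the 3 targets *Hes1*, *Atoh1* and *Dtx1*. The genes were chosen by symbol, and the choice began from *Dtx1*, whose level was already known to be lower after ceAF in these same mice. The difference between the groups is therefore given for these genes as a description, without a test, and the question asked is whether the lower *Dtx1* went with other genes of the pathway.

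A Notch receptor is a membrane protein that is cut when a Delta-like or Jagged ligand on a neighbouring cell binds it, and the freed intracellular part enters the nucleus, joins the DNA-binding protein RBPJ and a Mastermind protein, and turns on target genes. In the crypts of the colon this signal turns on *Hes1*, which represses *Atoh1*, the gene that commits progenitors to goblet and other secretory cells, so that Notch keeps progenitors dividing or absorptive. In lymphocytes *Dtx1*, which encodes the E3 ubiquitin ligase Deltex1, is a well-known Notch target.

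RNA was sequenced from colon tissue of 10 male C57/BL6 mice, 8 weeks old, called below by group and number, from DSS-1 to DSS-5 in one group and from ceAF-1 to ceAF-5 in the other. All of them drank 3% dextran sulfate sodium (DSS), which injures the colon epithelium and causes colitis, for 7 days. The 5 mice of the ceAF group then received chick early amniotic fluid (ceAF), the fluid around young chick embryos, by gavage at 15 mL/kg for 10 days, while the 5 mice of the DSS group did not. Untreated mice were not analysed here, so each value compares ceAF with DSS alone. Total counts on genes ran from 16275884 to 19901549 per mouse in the DSS group and from 14676471 to 18811795 in the ceAF group. Levels within a gene are given as CPM, a gene's count relative to the library total as scaled by edgeR's TMM method, and levels between genes as FPKM, which also divides by gene length.

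The tissue carried its defining markers in every mouse. The 12 epithelial markers, led by *Krt8*, summed to between 15360 and 22400 CPM, and the 10 goblet cell markers, led by the mucin gene *Muc2*, to between 5549 and 18060 CPM. Some mice stood apart from the rest of their group before any Notch gene was considered. DSS-1 had 309 CPM summed over 12 B-cell markers against 39.9 to 53.1 CPM in the other 4 DSS mice, and 1865 CPM over 8 neutrophil markers against 125.8 to 552 CPM. The neutrophil sums were led by *Ly6g*, which alone gave 482 of the 552 CPM in DSS-5 and 228.7 of the 1865 CPM in DSS-1. DSS-5 had 78.3 CPM over 14 T-cell markers against 184.4 to 207.6 CPM in the other 4 DSS mice. In the ceAF group, ceAF-1 had the lowest sums of B-cell, endothelial, fibroblast, goblet and neutrophil markers, at 11.8, 49.6, 174.1, 5549 and 21.5 CPM.

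*Dtx1* was low in the colon and lower still after ceAF. Its level was 15.5, 6.70, 7.30, 9.16 and 6.0 CPM in DSS-1 to DSS-5, from 100 to 267 counts. In ceAF-1 to ceAF-5 it was 3.36, 4.10, 4.22, 1.79 and 3.85 CPM, from 30 to 77 counts. The groups did not overlap, the highest ceAF mouse lying under the lowest DSS mouse, with DSS-1 far above the other DSS mice and ceAF-4 below the other ceAF mice. The means were 8.93 ± 3.84 CPM (SD, n = 5) and 3.46 ± 0.993 CPM (SD, n = 5), a log2 fold change of −1.36 (SE 0.313) for ceAF against DSS. Without DSS-1 it was −1.07 (SE 0.258), without DSS-5 −1.46 (SE 0.311), and without both −1.14 (SE 0.278). The gene (ENSMUSG00000029603) lies on the minus strand of chromosome 5 from 120818267 to 120849992 in the deposited table, whose build is not named, has 5270 exonic bases, and overlaps 0 other genes listed there. In bulk tissue, fewer cells of a type that carries *Dtx1* and less *Dtx1* RNA per cell cannot be told apart.

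None of the other 9 genes separated the groups. Of the 10 genes, 1 had every ceAF mouse below every DSS mouse, and 0 had every ceAF mouse above, where 0.465% and 0.774% of the 16545 genes tested did so. At an unadjusted p-value (edgeR, quasi-likelihood) under 0.05, 1 of the 10 was lower and 0 were higher, where 3.67% of all genes tested were lower and 3.26% higher. The gene counted was *Dtx1* in both cases, and since it was selected on this contrast nothing is read from these counts. All 10 genes passed the filter on low counts. After Benjamini-Hochberg adjustment over all 16545 genes, edgeR called 0 at an adjusted p-value under 0.05, with 607 lower and 539 higher at an unadjusted one, while limma-trend on FPKM called 0 and DESeq2 called 28. On log2(FPKM + 1), limma-trend gave 701 lower and 308 higher at an unadjusted one. The log2 fold changes of the other 9 ran from −0.49 for *Notch2* to 0.29 for *Notch4*, 5 of them below and 4 above 0, with a median of −0.01 beside 0.01 for all genes tested.

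**Figure D1:**
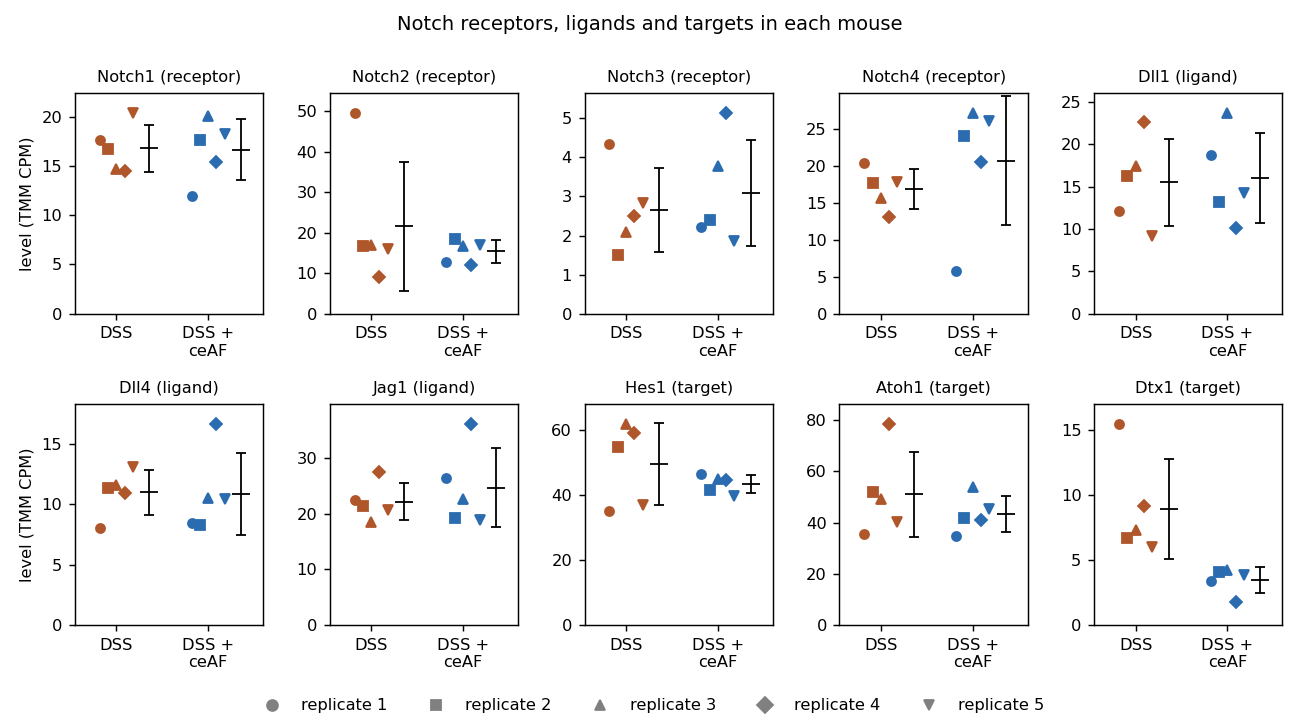
Level of each gene in TMM-normalized CPM (vertical axes, starting at 0, a separate scale for each gene) in the 5 DSS mice (brown) and the 5 mice given DSS and ceAF (blue); each symbol is a mouse, and the bar beside each group is its mean with SD. *Dtx1* is the only panel of the 10 in which the groups do not overlap, DSS mice lying at 6.0 to 15.5 CPM and ceAF mice at 1.79 to 4.22 CPM.

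Among the receptors, *Notch1*, which maintains crypt progenitors and directs T-cell fate, was the most even. It was at 17.6, 16.7, 14.7, 14.5 and 20.3 CPM in DSS-1 to DSS-5 and at 12, 17.6, 20, 15.4 and 18.3 CPM in ceAF-1 to ceAF-5. The groups overlapped almost fully, and the log2 fold change was −0.01 (SE 0.157, 95% interval −0.35 to 0.34).

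*Notch2*, the second crypt receptor and the one that marginal zone B cells need, was set apart by a single mouse. It was at 49.5 CPM in DSS-1 and at 16.6, 16.9, 8.97 and 15.9 CPM in DSS-2 to DSS-5, against 12.7, 18.5, 16.7, 12.1 and 17.0 CPM in ceAF-1 to ceAF-5. The high mouse was the same one that was highest for *Dtx1* and for the B-cell markers. With it, the log2 fold change was −0.49 (SE 0.385), and without it 0.08 (SE 0.214), so its sign rested on DSS-1.

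*Notch3*, the receptor of pericytes and vascular smooth muscle, was the lowest of the 10 genes. It was at 4.35, 1.5, 2.10, 2.50 and 2.82 CPM in DSS-1 to DSS-5 and at 2.21, 2.41, 3.78, 5.13 and 1.87 CPM in ceAF-1 to ceAF-5, from 29 to 86 counts. The highest mouse was in the ceAF group and the lowest in the DSS group, and the ranges of the groups overlapped in part. The log2 fold change was 0.22 (SE 0.352), −0.03 without ceAF-4 and 0.48 (SE 0.345) without DSS-1.

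*Notch4*, a receptor found mainly on endothelial cells, pointed the other way from *Dtx1* in 4 of the 5 ceAF mice. It was at 20.4, 17.6, 15.6, 13.1 and 17.8 CPM in DSS-1 to DSS-5 and at 5.80, 24.0, 27.1, 20.6 and 26.1 CPM in ceAF-1 to ceAF-5. The lowest value of all 10 mice was that of ceAF-1, the mouse with the lowest endothelial markers, and the other 4 ceAF mice lay above all 5 DSS mice. The log2 fold change was 0.29 (SE 0.329) with ceAF-1 and 0.53 (SE 0.143) without it.

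Of the ligands, *Dll1* and *Dll4* are those that activate Notch in the crypt, and *Dll4* is also made by endothelial cells. *Dll1* was at 12.2, 16.2, 17.5, 22.6 and 9.18 CPM in DSS-1 to DSS-5 and at 18.8, 13.1, 23.7, 10.1 and 14.2 CPM in ceAF-1 to ceAF-5, and its log2 fold change was 0.04 (SE 0.275). *Dll4* was at 8.0, 11.3, 11.6, 10.9 and 13.1 CPM in DSS-1 to DSS-5 and at 8.47, 8.27, 10.5, 16.6 and 10.5 CPM in ceAF-1 to ceAF-5, and its log2 fold change was −0.01 (SE 0.211). The groups overlapped for both, and *Dll4* was highest in ceAF-4 and lowest in DSS-1, the mice at the 2 ends of the *Dtx1* range. *Dll4* shares its locus with an antisense gene, *Gm14207*, which held 722 counts over the 10 mice beside 1842 for *Dll4*, and without a stated strand setting their reads cannot be told apart.

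*Jag1*, a ligand of vessels, stroma and epithelium, was at 22.5, 21.4, 18.6, 27.6 and 20.7 CPM in DSS-1 to DSS-5. In ceAF-1 to ceAF-5 it was at 26.4, 19.3, 22.7, 36.1 and 19.0 CPM. It was highest in ceAF-4, like *Dll4*, and otherwise the groups covered the same range. The log2 fold change was 0.16 (SE 0.186), and with 1 mouse left out it ran from −0.01 without ceAF-4 to 0.25 without ceAF-2.

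For both epithelial targets the groups overlapped. *Hes1*, the repressor that Notch turns on, was at 35.1, 55.0, 61.9, 59.3 and 37.0 CPM in DSS-1 to DSS-5 and at 46.5, 41.7, 45.0, 44.6 and 39.6 CPM in ceAF-1 to ceAF-5. The DSS mice spanned the wider range, with a coefficient of variation of 25.5% against 6.39% in the ceAF group, and DSS-1 and DSS-5 lay below every ceAF mouse while DSS-2, DSS-3 and DSS-4 lay above. The log2 fold change was −0.19 (SE 0.164, 95% interval −0.55 to 0.17).

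*Atoh1*, the secretory factor that *Hes1* represses, had a difference of the same sign as *Hes1* in these mice. It was at 35.5, 52.0, 49.3, 78.5 and 40.3 CPM in DSS-1 to DSS-5 and at 34.9, 41.7, 53.8, 41.2 and 45.2 CPM in ceAF-1 to ceAF-5. As for *Hes1*, DSS-1 and DSS-5 were the lowest DSS mice, and the groups overlapped. The log2 fold change was −0.24 (SE 0.203, 95% interval −0.68 to 0.21). With 1 mouse left out at a time it ran from −0.34 without DSS-1 to −0.03 without DSS-4 for *Atoh1*, and from −0.29 without DSS-1 to −0.09 without DSS-3 for *Hes1*. With DSS-1 and DSS-5 both left out, a setting chosen after seeing the data, it was −0.45 (SE 0.185) for *Atoh1* and −0.42 (SE 0.0975) for *Hes1*. The size of both differences thus depended on which DSS mice were included.

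**Figure D2:**
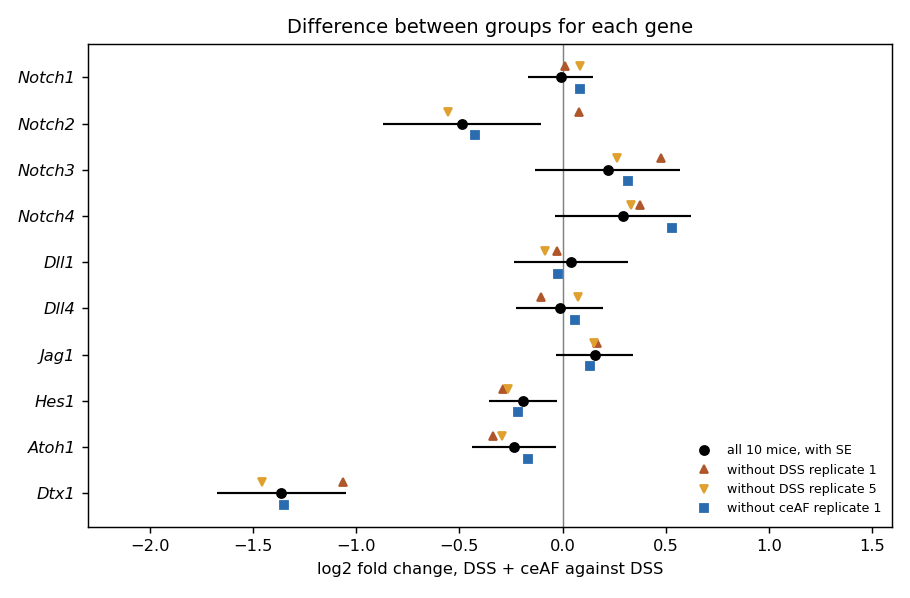
Log2 fold change of each gene for the ceAF group against the DSS group (horizontal axis), with black points and bars of 1 SE from all 10 mice and coloured symbols from fits that leave out DSS-1, DSS-5 or ceAF-1. *Dtx1* lies at −1.36, the other 9 genes lie between −0.49 and 0.29, and *Notch2* moves from −0.49 to 0.08 when DSS-1 is left out.

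In FPKM, the scale on which genes can be compared, the 2 epithelial targets stood far above the rest. Over the 10 mice *Hes1* had a mean of 22.8 ± 4.41 FPKM (SD) and *Atoh1* 22.2 ± 5.61 FPKM (SD). The mean difference between these neighbours within a mouse, in log2 FPKM, was not told apart from 0 (exact two-sided sign-flip permutation test, p = 0.516). Next came *Jag1* at 4.01 FPKM, *Dll1* at 3.7 FPKM and *Dll4* at 2.84 FPKM, then *Notch4* at 2.36 FPKM, *Notch2* at 1.73 FPKM, *Dtx1* at 1.18 FPKM, *Notch1* at 1.18 FPKM and *Notch3* at 0.355 FPKM. This order pools both groups, and the place of *Dtx1* in it depended on the group. In the DSS group *Dtx1* had a mean of 1.71 ± 0.770 FPKM (SD, n = 5), above *Notch1* at 1.19 ± 0.189 FPKM (SD, n = 5), and exceeded it in 4 of 5 mice. In the ceAF group *Dtx1* had 0.650 ± 0.190 FPKM (SD, n = 5), below *Notch1* at 1.16 ± 0.251 FPKM (SD, n = 5), and exceeded it in 0 of 5 mice. The step from *Atoh1* to *Jag1* was 2.43 ± 0.438 in log2 FPKM (SD, n = 10) and the step from *Notch1* to *Notch3* 1.53 ± 0.442 (SD, n = 10). Each of these was seen in 10 of 10 mice, with p = 0.00195, the smallest the exact permutation test can give, and adjusted p = 0.00877 over the 9 neighbouring pairs. The other 7 pairs did not pass adjustment. The closest to it was *Notch2* above *Dtx1*, in 9 of 10 mice, with p = 0.0312 and adjusted p = 0.0936 in the same exact test. Since *Dtx1* was selected on its lower values in the ceAF group, nothing is read from the pairs that hold it. *Notch2* had a mean of 2.04 FPKM beside 1.71 FPKM for *Dtx1* in the DSS group, and 1.42 beside 0.650 FPKM in the ceAF group.

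Within a group, mice with more *Dtx1* did not have more of the other Notch genes as a rule. To keep the difference between groups out of this comparison, each log2 CPM was taken as its deviation from the mean of its group, and values were reassigned within groups in an exact two-sided permutation test, over the 9 other genes. For *Hes1* the correlation with *Dtx1* was r = −0.32 (rho = −0.28, exact permutation p = 0.505 and 0.488), and for *Atoh1* r = −0.04 (rho = 0.07, exact permutation p = 0.925 and 0.873). For *Notch1* it was r = 0.17 (rho = 0.22, exact permutation p = 0.666 and 0.567). After adjustment 0 of the 9 passed.

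The 2 largest values belonged to *Dll4* and *Notch2*. *Dll4* was lower where *Dtx1* was higher, with r = −0.87 (rho = −0.87, exact permutation p = 0.0123 and 0.0132, adjusted p = 0.111 and 0.119). *Notch2* was higher where *Dtx1* was higher, with r = 0.64 (rho = 0.71, exact permutation p = 0.0778 and 0.0338, adjusted p = 0.35 and 0.152). Without both DSS-1 and ceAF-4, the mice farthest from the median of *Dtx1*, r was −0.21 for *Dll4* and −0.45 for *Notch2*. The *Notch2* value rested on DSS-1, with r = 0.16 without that mouse and 0.68 without ceAF-4, while *Dll4* gave −0.83 and −0.76 in the same 2 cases. When a single mouse was left out, the *Notch2* relation passed adjustment without DSS-4 (r = 0.88, exact permutation, adjusted p = 0.0219) and the *Dll4* relation without ceAF-1 (r = −0.93, exact permutation, adjusted p = 0.0312). Over all 10 mice, with the group difference left in, r was −0.44 for *Dll4* and 0.53 for *Notch2*.

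For the remaining genes the correlation with *Dtx1* between mice of a group was r = 0.04 for *Notch3* (rho = 0.04, exact permutation p = 0.912 and 0.924) and r = 0.14 for *Notch4* (rho = 0.50, exact permutation p = 0.67 and 0.124). It was r = 0.36 for *Dll1* (rho = 0.35, exact permutation p = 0.341 and 0.357) and r = −0.41 for *Jag1* (rho = −0.27, exact permutation p = 0.26 and 0.486). Single mice moved these values. For *Notch3* r was −0.51 without DSS-1 and 0.68 without ceAF-4, for *Dll1* 0.70 and 0.05, for *Jag1* −0.59 and 0.17, and for *Notch4* 0.52 without ceAF-1. Without DSS-1 and ceAF-4, r for *Atoh1* was 0.93 and for *Hes1* 0.55, so these values too depended on which mice were included.

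*Dtx1* is known from lymphocytes, so the markers of these cells are given beside it. The 14 T-cell markers, of which *Cd8a* was the most abundant and 0 were at 0 in any mouse, summed to 184.4, 196.9, 192.3, 207.6 and 78.3 CPM in DSS-1 to DSS-5 and to 71.4, 97.9, 81.4, 42.2 and 55.0 CPM in ceAF-1 to ceAF-5. All 14 were lower in the ceAF group, 13 of them at an unadjusted p-value (edgeR, quasi-likelihood) under 0.05, where 3.67% of all genes tested were lower. Their median log2 fold change was −1.24. Without DSS-5 these were 13 of 14 and −1.43, and without DSS-1 12 of 14 and −1.20. In this list *Cd3d*, *Cd3e*, *Cd3g*, *Cd8a*, *Cd8b1* and *Lck* had been reported by the study as lower after ceAF in these same data. The count of T-cell markers is therefore a description, and nothing is read from it against the share of all genes. ceAF-4 had the lowest T-cell sum and the lowest *Dtx1*. The lists of other cell types differed in direction and in how far they depended on single mice. Of the 7 neutrophil markers tested 7 were lower, 5 of them at an unadjusted p-value under 0.05 and 1 without DSS-1, with a median of −3.94 and of −1.07 without DSS-1. Of the macrophage markers 7 of 8 were below 0, with a median of −0.54 and 2 at an unadjusted p-value under 0.05, and without DSS-1 or without ceAF-1 the median was −0.45 and −0.33 with 0 at that p-value. The 12 endothelial markers, all below 0 and 1 at that p-value, had a median of −0.35, and of −0.16 and −0.13 without these mice. The 7 pericyte markers, all below 0 and 2 at that p-value, had a median of −0.40, and of −0.28 with 0 at that p-value without DSS-1. The fibroblast markers went from 7 of 7 below 0 (median −0.37) to 3 of 7 without DSS-1 (median 0.01). Epithelial markers split into 6 lower and 6 higher (median 0.00), and crypt stem-cell markers into 3 lower and 4 higher (median 0.21, and 0.07 without DSS-1). Goblet-cell markers had 8 of 10 below 0 (median −0.40, and −0.16 without ceAF-1), plasma-cell markers 6 of 7 (median −0.25, and −0.12 without DSS-1), and visceral muscle 8 of 8 (median −0.10, and 0.04 without ceAF-1). At an unadjusted p-value under 0.05, 1 crypt stem-cell marker was higher, and 0 without DSS-1, where 3.26% of all genes tested were higher. In the goblet-cell and plasma-cell lists 1 marker each was lower at that p-value, and for goblet cells 0 without DSS-1 or without ceAF-1. With all mice the epithelial, visceral muscle and fibroblast lists had 0. Between mice of a group, *Dtx1* and the mean log2 CPM of the T-cell list gave r = 0.60 (rho = 0.68, exact permutation p = 0.0847 and 0.0428, adjusted p = 0.385 and 0.197), and r = 0.70 without DSS-1 and ceAF-4. Over all 10 mice r was 0.85, a value that holds the group difference on which *Dtx1* was chosen. DSS-5 had the lowest T-cell markers of the DSS group and also its lowest *Dtx1*, at 6.0 CPM. Every DSS mouse lay above every ceAF mouse for *Dtx1*, which is the difference on which the gene was chosen.

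The 12 B-cell markers, led by *Cd79a* and with 0 of them at 0 in any mouse, summed to 309, 53.1, 39.9, 45.9 and 51.7 CPM in DSS-1 to DSS-5 and to 11.8, 55.2, 106.2, 16.9 and 151.6 CPM in ceAF-1 to ceAF-5. At an unadjusted p-value under 0.05 there were 0 of the 12, and their median log2 fold change was −0.60 with DSS-1 and 0.53 without it. Between mice of a group *Dtx1* and the B-cell list gave r = 0.72 (rho = 0.72, exact permutation p = 0.0332 and 0.0265, adjusted p = 0.349 and 0.185), and r = 0.31 without DSS-1 and ceAF-4. ceAF-5 and ceAF-3, with the 2 highest B-cell sums outside DSS-1, had 3.85 and 4.22 CPM of *Dtx1*. The part of T cells, B cells or the other cell types in the *Dtx1* difference was not tested.

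For the other marker lists, *Dtx1* between mice of a group gave r from −0.37 for crypt stem cells to 0.45 for macrophages, and 0 of the 21 relations of this family passed adjustment. Without DSS-1 and ceAF-4 these values moved widely, from 0.02 to 0.93 for goblet cells, from 0.26 to 0.69 for the epithelium, from −0.08 to 0.65 for the endothelium, from 0.45 to 0.65 for macrophages, from 0.17 to 0.40 for fibroblasts, from −0.37 to 0.36 for crypt stem cells, from 0.15 to −0.27 for pericytes, from 0.18 to −0.24 for visceral muscle and from 0.32 to 0.23 for neutrophils. For plasma cells the rank correlation was larger than for T or B cells, with rho = 0.76 beside r = 0.33 (exact permutation p = 0.0199 and 0.337, adjusted p = 0.185 and 0.544), and r was 0.65 without DSS-1 and ceAF-4. The family also held 9 relations of other Notch genes to the cells known to carry them. *Notch3* with the endothelial list gave r = 0.71 (rho = 0.78, exact permutation p = 0.0223 and 0.0135, adjusted p = 0.349 and 0.185), and r = 0.32 without DSS-1 and ceAF-4. With the pericyte list it gave r = 0.59 (rho = 0.64, exact permutation p = 0.0836 and 0.0562), and r = 0.03 without the same mice. *Notch4* with the endothelial list gave r = 0.69 (rho = 0.53, exact permutation p = 0.222 and 0.123), which rested on ceAF-1 and DSS-4, since r was −0.26 without them. *Hes1* with the epithelial list gave r = 0.66 (rho = 0.70, exact permutation p = 0.0994 and 0.0491), and r = 0.41 without DSS-1 and DSS-5. *Atoh1* with the goblet list gave r = 0.52 (rho = 0.26, exact permutation p = 0.11 and 0.489), and r = 0.61 without DSS-1 and DSS-4. The other 4, *Notch4* with pericytes, *Dll4* with endothelium, *Dll1* with goblet cells and *Jag1* with visceral muscle, ran from r = −0.52 for *Jag1* (rho = −0.65, exact permutation p = 0.193 and 0.098) to r = 0.43 for *Dll4* (rho = −0.04, exact permutation p = 0.314 and 0.923). For *Dll1* r went from 0.05 to −0.49 without DSS-5 and ceAF-3, and for *Notch4* from 0.35 to −0.12 without DSS-4 and ceAF-1. For *Dll4* it was 0.34 without DSS-1 and ceAF-4, and for *Jag1* −0.55 without DSS-4 and ceAF-4.

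**Figure D3:**
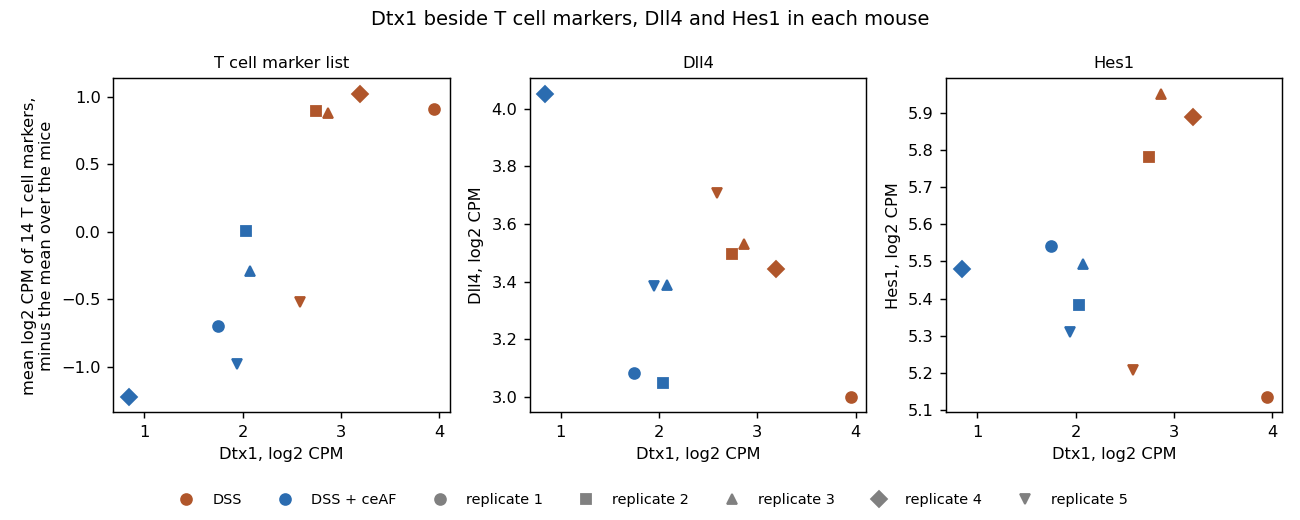
Level of *Dtx1* in log2 CPM (horizontal axes) against the T-cell marker list (left, mean log2 CPM relative to the mean over the mice), *Dll4* (middle, log2 CPM) and *Hes1* (right, log2 CPM), each symbol a mouse, DSS in brown and DSS with ceAF in blue. Over the 10 mice, with the difference between groups included, r was 0.85 with the T-cell list, −0.44 with *Dll4* and 0.06 with *Hes1*; in deviations from the group means it was 0.60, −0.87 and −0.32.

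The 8 genes most like *Dtx1* were sought by their correlation over the 10 mice, in which the difference between the groups is included. In log2 CPM they were *Ltb* (r = 0.97), *Rac2* (r = 0.96), *Pced1b* (r = 0.95), *Bcl2a1b* (r = 0.95), *Il27ra* (r = 0.94), *Gmfg* (r = 0.94), *Lef1* (r = 0.94) and *Pstpip1* (r = 0.93), and in deviations from the group means their r ran from 0.83 for *Il27ra* to 0.95 for *Ltb*. These were chosen for their likeness, so no test is given. *Ltb*, which encodes lymphotoxin beta, a cytokine made by lymphocytes, was at 12, 7.05, 7.06, 7.68 and 4.44 CPM in DSS-1 to DSS-5 and at 3.36, 4.43, 4.66, 1.73 and 4.78 CPM in ceAF-1 to ceAF-5. *Lef1*, a transcription factor of the Wnt pathway that naive T cells also make, was at 9.45, 3.10, 2.63, 3.20 and 1.80 CPM in DSS-1 to DSS-5 and at 1.53, 1.95, 1.1, 0.537 and 1.92 CPM in ceAF-1 to ceAF-5. Both were highest in DSS-1 and lowest in ceAF-4, as *Dtx1* was. The same held for *Rac2*, at 100.4 CPM in DSS-1 and 9.84 CPM in ceAF-4, and for *Pced1b*, *Il27ra*, *Gmfg* and *Pstpip1*. *Bcl2a1b* was highest in DSS-1 and lowest in ceAF-1. The pattern was thus not particular to *Ltb* and *Lef1*.

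The rest of the pathway was described by 65 further genes in 7 lists, of which 58 had enough counts to be tested. Of these, 34 were lower after ceAF and 24 higher, 5 lower and 0 higher at an unadjusted p-value (edgeR, quasi-likelihood) under 0.05, where 3.67% of all genes tested were lower and 3.26% higher. The groups did not overlap for 0 of the 58, where 0.465% of all genes had every ceAF mouse below and 0.774% every ceAF mouse above. The median log2 fold change was −0.04, beside 0.01 for all genes tested, of which 48.6% were lower. The *Atoh1* list holds genes of secretory cells rather than of the pathway itself. Without it 49 genes were tested, 28 lower and 21 higher, with a median of −0.03. In the same fit 3 of those were lower and 0 higher at an unadjusted p-value under 0.05. None of the 5 passed adjustment over all genes.

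Those 5 came from 4 lists. *Maml2*, a Mastermind coactivator, was at 3.77, 3.7, 3.17, 3.71 and 2.40 CPM in DSS-1 to DSS-5 and at 1.30, 2.21, 2.47, 2.39 and 2.47 CPM in ceAF-1 to ceAF-5, with a log2 fold change of −0.62 (SE 0.229). DSS-5 was within the ceAF range, and the other 4 DSS mice were above it. *Lfng*, the Fringe enzyme that adds sugars to Notch and shifts its choice of ligand, had a log2 fold change of −0.54 (SE 0.241), and *Hes2*, a relative of *Hes1*, of −0.53 (SE 0.218). *Gfi1* and *Tff3*, which act downstream of *Atoh1* in secretory cells, had log2 fold changes of −0.46 (SE 0.178) and −0.67 (SE 0.286). Over the 19 alternative fits *Maml2* kept an unadjusted p-value under 0.05 in 18, *Gfi1* in 15, *Hes2* in 12, *Tff3* in 11 and *Lfng* in 7. Without DSS-1, 2 genes of the lists, *Gfi1* and *Maml2*, were at an unadjusted p-value under 0.05.

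By role, the medians of the lists with 5 or more genes tested lay between −0.16 and 0.06. Of the 10 genes for cutting the receptor, 9 were lower and 1 higher, with a median log2 fold change of −0.06. Of the 11 genes of the nuclear complex, 4 were lower and 7 higher, with a median of 0.06, and *Rbpj*, singled out after its values were seen, was at −0.18 (SE 0.123). All 5 genes that add sugars to the receptor were lower, with a median of −0.16. The 12 genes of endocytosis and turnover split into 5 lower and 7 higher, with a median of 0.05. Other targets split into 5 lower and 4 higher of 9 tested, with a median of −0.03, and the *Atoh1* list into 6 lower and 3 higher of 9 tested, with a median of −0.12. The 2 tested genes of further ligands, *Jag2* and *Dlk1*, were both higher. Single mice moved some of these medians and counts. Without DSS-5 the nuclear complex had a median of 0.16, with 3 of its genes higher at an unadjusted p-value under 0.05. Without ceAF-1 the genes for cutting the receptor had −0.14 and the *Atoh1* list, then with 10 genes tested, −0.05. The genes for cutting the receptor had 7 of 10 lower without DSS-5 and 8 of 10 without DSS-1. Without DSS-1 the *Atoh1* list had 9 lower of 10 tested.

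Some differences in these lists had errors about as large as themselves. *Dlk1*, a non-canonical ligand, had a log2 fold change of 0.81 (SE 0.934), *Dtx3l* of 0.41 (SE 0.415) and *Neurl1a* of 0.33 (SE 0.336). The error was smaller than the difference for *Hey2*, a further target, with −0.71 (SE 0.324), and for *Il2ra*, a target in T cells, with −0.65 (SE 0.450). *Hey2* was at an unadjusted p-value under 0.05 in the fit with a replicate block, without DSS-4 and without ceAF-1, and not in the main fit. The relatives of *Dtx1*, named for their family after their values were seen, did not follow it, with −0.14 (SE 0.180) for *Dtx2*, −0.12 (SE 0.196) for *Dtx3* and 0.15 (SE 0.197) for *Dtx4*. *Dtx3l* was the most abundant of them and the most variable, at 160.5, 214.9, 226.7, 217.8 and 153.3 CPM in DSS-1 to DSS-5 and at 367, 259.2, 464, 127.1 and 72.1 CPM in ceAF-1 to ceAF-5. The 7 genes with too few counts to be tested were *Dll3*, *Dlk2*, *Hes3*, *Hes5*, *Hes7*, *Ptcra* and *Neurog3*. *Ptcra*, which Notch turns on in the thymus, had 1 count over all mice, and *Hes5* had 2.

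Promoter sequences were read for the letters TGGGAA, the core that RBPJ is known to bind, and their reverse complement TTCCCA. In RefSeq's table for GRCm38.p6, 9 of the 10 genes had a window, 10 windows in all, and *Hes1* had none there. In the 250 bases before the start, 0 of the 10 windows held the letters on either strand, where 21.6% of all 32851 windows did. The 250 bases before *Dtx1* are shown because that gene carries the difference between groups, on the minus strand at chr5:120711670-120711919. This position is on GRCm38.p6, and the positions of the deposited table differ from it, so the 2 cannot be set side by side. The stretch before *Hes5* is shown to let the letters be seen, in capitals, once on each strand, on the plus strand at chr4:154960685-154960858, and was picked after the windows were read. A match is a description of letters and not a binding site, and their absence from a window says nothing of RBPJ elsewhere at the gene.
Dtx1: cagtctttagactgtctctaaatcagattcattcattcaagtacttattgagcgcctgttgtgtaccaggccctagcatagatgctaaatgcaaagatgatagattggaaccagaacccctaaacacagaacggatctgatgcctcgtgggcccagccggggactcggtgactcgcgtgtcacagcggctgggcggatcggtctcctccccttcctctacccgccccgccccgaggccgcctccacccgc
Hes5: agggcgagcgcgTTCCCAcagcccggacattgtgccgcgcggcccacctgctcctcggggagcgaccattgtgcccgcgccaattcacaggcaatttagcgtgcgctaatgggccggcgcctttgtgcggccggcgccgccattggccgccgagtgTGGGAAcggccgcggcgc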

How the data were processed

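The authors deposited 1 table that gives, for each gene and mouse, the count of reads without normalization and the FPKM, which scales that count by gene length and library total. The submitters' processing notes name cutadapt 1.9.1 and HISAT2 2.2.1; the counting program, strand setting and build are not given in the sources used here, and counts do not show reads shared between overlapping genes. Mice were grouped by the sample labels. The members and lists were chosen with earlier results of these data known.

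Genes were kept by filterByExpr (minimum count 10) in edgeR 4.0.16, R 4.3.3, scaled by TMM and compared two-sided by the quasi-likelihood test, p-values being adjusted over all 16545 genes by the Benjamini-Hochberg method. Log2 CPM used a prior count of 1, and log2 FPKM a pseudocount of 0.1. Correlations of deviations from group means were tested by exact permutation over 14400 assignments, and neighbouring levels by exact sign flips. Alternatives were upper quartile scaling, DESeq2 1.42.0, other filters, robust fits, a replicate block, limma 3.58.1 on FPKM, and each mouse left out. The tests were tried on simulated data, and no result of that trial is given or relied on here. Figures used matplotlib 3.10.9 in Python 3.11.15.

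Named genes were the 10 members, the Notch list genes at an unadjusted p-value under 0.05, and the 3 largest log2 fold changes of those lists in each direction. Also named were the 8 tested genes most correlated with *Dtx1* over the 10 mice, and the most abundant gene of the epithelial, goblet, T-cell, B-cell and neutrophil lists. *Gm14207* was named as the gene that shares the locus of *Dll4*. Others are named where a sentence says that they were chosen after their values were seen, that the study had reported them, or where they complete a list. Columns of per-sample values left unused numbered 0.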

Additional observations from a re-analysis of the deposited data

Results flagged for a closer look

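In each group of 5 mice the most distant mouse was compared with the rest, as the gap to its nearest neighbour divided by the range of the group, with 0.71 as the critical value. Chance passes it in about 1 in 20 groups, or 2.2 of the 44 groups examined, and 6 passed it. For 2 Notch genes a mouse stood apart. *Notch2* was at 49.5 CPM in DSS-1, against at most 16.9 CPM in the other DSS mice (gap over range 0.803). *Dll4* was at 16.6 CPM in ceAF-4, against at most 10.5 CPM in the other ceAF mice (0.735).

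The other 4 were sums of marker genes. DSS-5 was lowest for the T-cell markers, at 78.3 CPM against at least 184.4 CPM in the other DSS mice (gap over range 0.82). DSS-1 was highest for the B-cell markers, at 309 CPM against at most 53.1 CPM (0.951), for the fibroblast markers, at 1113 CPM against at most 535 CPM (0.936), and for the neutrophil markers, at 1865 CPM against at most 552 CPM (0.755). *Dtx1* did not pass the critical value in either group.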

How the results depend on the processing

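The log2 fold change of *Dtx1* was below 0 in all 19 alternatives, from −1.46 to −0.69, the latter on log2(FPKM + 1), where low values are compressed by the pseudocount. Of 190 member values, 189 moved by less than 1 SD between mice of a group. That limit is wide, since leaving out 1 mouse moves a group mean by only a part of this SD. *Notch2* stayed within it without DSS-1, going from −0.49 to 0.08 against an SD of 0.659. The signs of *Notch1*, *Dll4* and *Dll1* changed in 7, 6 and 5 of the 19, those of *Notch2*, *Notch3* and *Jag1* in 2, 1 and 1, and those of *Notch4*, *Hes1* and *Atoh1* in 0.

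Counts of genes varied more. At an adjusted p-value under 0.05 DESeq2 called 28 genes, against 0 with edgeR, and the fits without 1 mouse 0 to 3, the 3 without DSS-5. At an unadjusted p-value under 0.05, 607 were lower and 539 higher, and without 1 mouse 321 to 997 and 391 to 875, with 321 lower without DSS-1, 847 higher without DSS-5, and 997 lower and 875 higher without ceAF-1. No filter beyond a total above 0 gave 976 lower, with more genes tested. Limma-trend gave 701 lower and 308 higher on log2(FPKM + 1), and 699 and 291 on log2(FPKM + 0.1). The cause was not tested for the others. Of the Notch lists, 5 genes passed, 2 to 7 without 1 mouse, the 2 without DSS-1, ceAF-2 or ceAF-3, and 3 with DSS-1 and DSS-5 both left out, a setting chosen after seeing the data.

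With the replicate number as a replicate block, 0 genes were called after adjustment, 341 were lower and 353 higher at an unadjusted p-value under 0.05, and 3 Notch list genes passed. The numbers do not pair the mice: deviations of same-numbered mice correlated at −0.249 to 0.286, and only number 5 matched its own number best.

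Of the 9 relations of *Dtx1* to other members, 0 passed adjustment, and 0 to 1 without 1 mouse, the 1 without DSS-4 or ceAF-1. Of the neighbouring levels 2 pairs passed with either pseudocount. The low counts of *Dtx1*, 30 to 267 per mouse, and of *Notch3*, 29 to 86, limit the precision of their values.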

Other observations

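The deposited table also assigns genes to the KEGG Notch signaling pathway, an assignment read after the other lists had been described. It covers 93 genes of the table, 9 of which are among the 10 described above. Of the others, 47 had enough counts to be tested, 30 of them also in the lists described above, 27 lower after ceAF and 20 higher, and their median log2 fold change was −0.03. At an unadjusted p-value (edgeR, quasi-likelihood) under 0.05 there were 3 lower and 2 higher, where 3.67% of all genes tested were lower and 3.26% higher. They were named after their values were seen: *Matn4* (log2 fold change −1.35), *Maml2* (−0.62) and *Lfng* (−0.54) were lower, and *Dvl3* (0.25) and *Dvl1* (0.25), which encode Dishevelled proteins of the Wnt pathway, were higher.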
